A study of Mus musculus with 18 samples.

Results

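The genes described here are 43 mouse genes of the unfolded protein response and the integrated stress response, taken by gene name from both deposited expression tables. They are 43 of 34385 genes in the knockdown table and 43 of 34396 genes in the overexpression table, and all 43 passed the filter on low values in both. Of these, 23 serve the endoplasmic reticulum (the ER stress list) and 20 are Atf4, its partners and its target genes in amino acid supply and stress control (the Atf4 and amino acid list). The RNA came from retinas of ICR mice that were electroporated at postnatal day 0.5 with a plasmid of interest and an EGFP plasmid and then kept as explants for 3 days, after which EGFP-positive cells were sorted. The knockdown table holds 3 libraries each of Nmnat1 knockdown, Nmnat2 knockdown and scramble plasmid, and the table of overexpressions holds 3 each of Nmnat1 overexpression, Nmnat2 overexpression and empty vector. Nmnat1 and Nmnat2 encode enzymes that make NAD, the first in the nucleus and the second at the Golgi and in axons. All 6 groups, controls included, were electroporated, cultured and sorted in the same way. Which promoters drive the plasmids is not given in the sources used here, and the sorted cells are the mixture of retinal types that took up plasmid.

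When unfolded proteins build up in the ER, the sensors Ire1 (gene Ern1), Perk (gene Eif2ak3) and Atf6 are set free from the chaperone BiP (gene Hspa5). Ire1 splices Xbp1 RNA and Atf6 is cut in the Golgi, and both products raise chaperone and degradation genes, many of them through the ER stress element of their promoters. Perk phosphorylates the translation factor eIF2, as do kinases that sense amino acid lack, haem lack or double-stranded RNA, and this favours translation of Atf4, which raises genes of amino acid supply and the factor Chop (gene Ddit3). Splicing, phosphorylation and translation were not measured here: a value for Xbp1 is the summed level of the gene's RNA.

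Levels are given as ppm, the share of a library's summed length-scaled signal in parts per 1000000, and fold changes as differences in log2(ppm + 1) ± SE. In units of 1000000, column sums of the deposited signal ran from 14.4 to 29.6 for the knockdown libraries and from 17.3 to 26.2 for the overexpression libraries. For 1 kb of effective length (transcript length less a fitted offset), 1 ppm stood for about 11.4 to 20.4 reads. These read numbers are estimates from steps of single reads among low values. Library 2 of the Nmnat2 knockdown stood apart: it lay at 129 on the first principal component, against -31.2 to -5.83 for the other 8 libraries of its table, and 6.51% of its signal was mitochondrially encoded. In the overexpression table the 3 libraries numbered 1 lay at 24.5 to 91.4 on that component and the other 6 at -50.0 to -4.14. Calls and list medians are also given without the libraries that stood apart. Nmnat1 averaged 7.80 ± 0.642 ppm in Nmnat1 knockdown libraries and 19.0 ± 1.99 ppm in scramble libraries (SD, n = 3 each). Nmnat2 averaged 0.927 ± 0.390 ppm in Nmnat2 knockdown libraries and 2.96 ± 2.91 ppm in scramble libraries (SD, n = 3 each), with overlap, so that its level does not check the labels. Overexpressed Nmnat1 and Nmnat2 averaged 19325 ± 7372 and 21581 ± 1072 ppm, against 20.8 ± 1.97 and 1.89 ± 0.788 ppm in empty vector libraries (SD, n = 3 each). The labels do not say that libraries of a group came from separate retinas, so each p-value reflects only how far these libraries spread, and that spread may be technical.

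Because many of these genes are known by short elements in their promoters, the RefSeq promoter table on GRCm38.p6 (250 bases before to 50 bases after each gene's start) was searched on both strands. It held 39 of the 43 genes. The ER stress element was searched as CCAAT and CCACG separated by 9 bases, and the Atf4-type element (CARE) as TGATGNAAN. The first stood in 8 of 20 promoters of the ER stress list (40%), 0 of 22 promoters of the Atf4 and amino acid list and 0.119% of all 32851 promoters. CARE stood in 6 of 22 promoters of the Atf4 and amino acid list (27.3%), 1 of 20 of the ER stress list and 3.95% of all promoters. A second ER element, searched as ATTGG and CCACG separated by 1 base, stood in 2 of 20 promoters of the ER stress list (10%) and 0.0365% of all promoters, and the Xbp1-type element TGACGTGG in 0 of 20 and 0.676%. A match is a description of letters and not a bound site. The stretches below run 5′ to 3′ on the gene's strand, end before the gene's start, and show the fixed letters of each match in capitals, either as searched or as the reverse complement. They are shown for chaperone and degradation genes with an ER element and for amino acid genes with a CARE whose values follow.
Hspa5, chr2:34772005-34772063, plus strand: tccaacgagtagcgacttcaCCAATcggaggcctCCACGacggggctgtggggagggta
Hsp90b1, chr10:86705513-86705676, minus strand: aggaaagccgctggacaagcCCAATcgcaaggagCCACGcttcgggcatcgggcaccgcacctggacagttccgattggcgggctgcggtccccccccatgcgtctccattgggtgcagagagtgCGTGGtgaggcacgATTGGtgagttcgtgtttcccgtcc
Dnajc3, chr14:118937807-118937865, plus strand: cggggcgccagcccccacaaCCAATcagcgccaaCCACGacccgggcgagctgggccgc
Canx, chr11:50325780-50325838, minus strand: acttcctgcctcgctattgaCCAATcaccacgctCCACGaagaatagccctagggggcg
Calr, chr8:84847055-84847113, minus strand: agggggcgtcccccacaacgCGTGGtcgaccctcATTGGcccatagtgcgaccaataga
Herpud1, chr8:94386296-94386407, plus strand: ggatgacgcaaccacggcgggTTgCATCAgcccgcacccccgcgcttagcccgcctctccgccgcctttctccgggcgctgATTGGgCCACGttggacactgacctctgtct
Asns, chr6:7693210-7693252, minus strand: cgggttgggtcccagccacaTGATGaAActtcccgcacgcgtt
Slc7a11, chr3:50443633-50443699, minus strand: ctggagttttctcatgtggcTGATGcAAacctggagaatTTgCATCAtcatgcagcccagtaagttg
The Hsp90b1 stretch holds 2 matches of the ER stress element and the Slc7a11 stretch 2 of CARE. The Herpud1 stretch holds 1 match of the second ER element and 1 of CARE.

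Among the 43 genes, the adjusted p passed 0.05 once in the 6 comparisons: Xbp1 was higher in Nmnat1 knockdown than in Nmnat2 knockdown cells (limma, Benjamini-Hochberg over all genes of the table). None passed in either knockdown against scramble or in the 3 overexpression comparisons. Of all genes tested, 0.144% passed for Nmnat1 knockdown and 0.436% for Nmnat2 knockdown against scramble, and 2.06% for Nmnat1 against Nmnat2 knockdown. For Nmnat1 and Nmnat2 overexpression against empty vector 0.121% and 0.55% passed, and for the 2 overexpressions against each other 0.0193%. At an unadjusted p under 0.05, 5 of 23 ER stress genes and 0 of 20 Atf4 and amino acid genes passed for Nmnat1 knockdown, beside 10.5% of all genes. For Nmnat2 knockdown it was 4 of each list, beside 16.8%. For Nmnat1 against Nmnat2 knockdown it was 8 and 4, beside 16.4%. For Nmnat1 overexpression it was 3 of each list, beside 9.57%. For Nmnat2 overexpression it was 1 and 2, beside 10.3%. For the 2 overexpressions against each other it was 1 and 0, beside 4.46%. Most differences described below are therefore values with their spread and not calls.

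**Figure D1:**
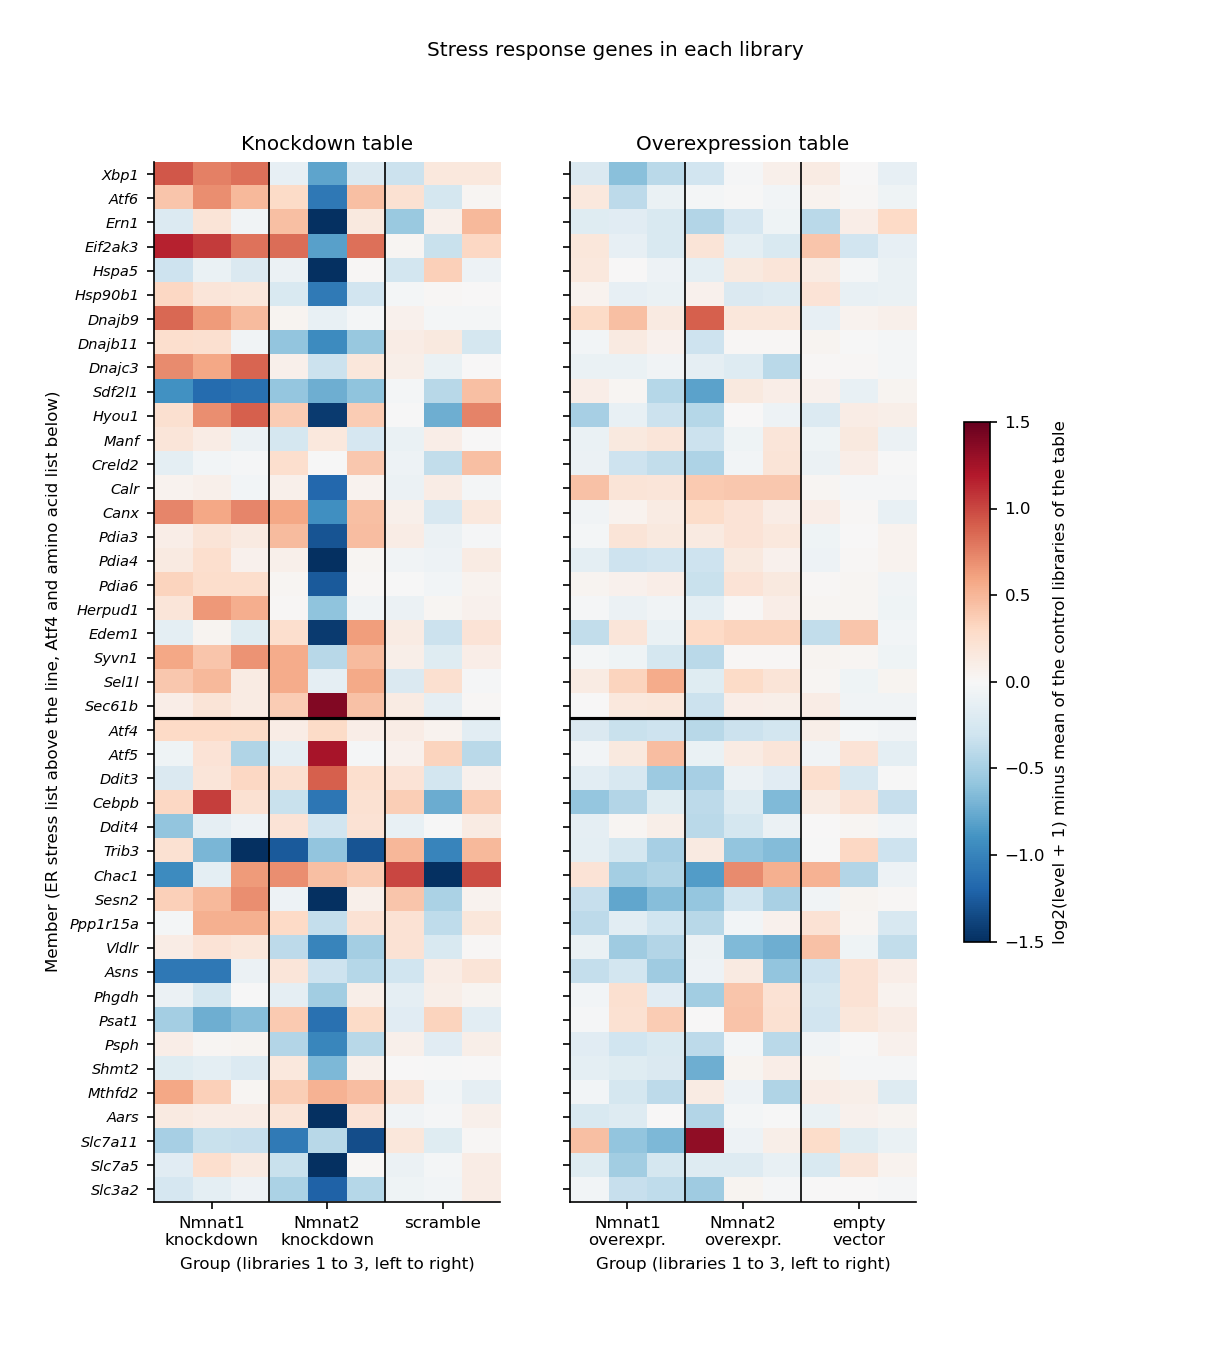
Each of the 43 genes (rows) in each of the 18 libraries (columns, 3 per group), coloured by log2(ppm + 1) minus the mean of the control libraries of the same table, with colours capped at 1.5 in both directions. Xbp1 is red in the 3 Nmnat1 knockdown libraries (95 to 107 ppm), and most rows are blue in library 2 of the Nmnat2 knockdown.

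In Nmnat1 knockdown cells 18 of the 23 ER stress genes had a fold change above 0, with the sensor Eif2ak3 and the factor Xbp1 at the top and the BiP partner Sdf2l1 at the bottom. The median fold change of the list was 0.22, beside -0.00 over all genes tested, and 10 of 23 members were higher in all 3 Nmnat1 knockdown libraries than in any scramble library, where 12.8% of all genes were. Only Sdf2l1 was lower in all 3, where 12% of all genes were. The summed level of the list was 3032 to 3199 ppm in Nmnat1 knockdown and 2680 to 2848 ppm in scramble libraries.

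Xbp1, the factor activated by Ire1 splicing (chr11:5520659-5525893, plus strand, GENCODE M21 on GRCm38), stood at 107, 95 and 99.3 ppm in Nmnat1 knockdown libraries and at 44.5, 62.4 and 62.0 ppm in scramble libraries. The groups did not overlap, and the fold change was 0.84 ± 0.23 (adjusted p = 0.222). Eif2ak3, the sensor kinase Perk, stood at 27.0, 25.1 and 21.2 ppm in Nmnat1 knockdown libraries, against 11.8, 8.94 and 14.6 ppm in scramble libraries. Every Nmnat1 knockdown library was above every scramble library, at a fold change of 1.01 ± 0.42 (adjusted p = 0.438). The sensor Atf6 also had no overlap (22.4 to 27.6 against 13.7 to 19.7 ppm), whereas Ern1, which encodes Ire1, overlapped (9.87 to 13.2 against 7.48 to 16.5 ppm).

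Among the chaperones, those that assist BiP differed among themselves. Dnajc3, a BiP cochaperone that also inhibits Perk, stood at 26.4, 24.0 and 29.5 ppm in Nmnat1 knockdown libraries and at 16.7, 14.6 and 15.8 ppm in scramble libraries (fold change 0.72 ± 0.23, adjusted p = 0.311). Dnajb9, a BiP cochaperone in degradation of misfolded proteins and a known Xbp1 target, stood at 31.9, 27.2 and 24.2 ppm, against 17.9, 16.7 and 16.8 ppm in scramble libraries (fold change 0.66 ± 0.21, adjusted p = 0.314). Both genes separated the groups without overlap. BiP itself, Hspa5, stood at 174, 202 and 186 ppm in Nmnat1 knockdown libraries and at 178, 278 and 205 ppm in scramble libraries. Its groups overlapped, at -0.21 ± 0.36 (adjusted p = 0.873). Sdf2l1, an ER protein that works with BiP and Dnajb11, was listed at 17.0, 14.3 and 14.6 ppm in Nmnat1 knockdown libraries and at 32.2, 24.3 and 45.4 ppm in scramble libraries. It was the lowest fold change of the list, -1.06 ± 0.26 (adjusted p = 0.172), and had the smallest p of the list.

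Library 2 of the Nmnat2 knockdown enters these tests through the shared estimate of spread and the filter on low values, which kept 22233 genes with it and 21669 without. Without it the fold changes of Nmnat1 knockdown against scramble were as above with smaller errors, and 8 ER stress genes rose and 1 fell. In that fit 4.82% of all genes rose and 3.6% fell. Canx, the lectin chaperone calnexin, rose by 0.68 ± 0.11 (adjusted p = 0.00546), Xbp1 by 0.84 ± 0.14 (adjusted p = 0.00603) and Eif2ak3 by 1.01 ± 0.20 (adjusted p = 0.0153). Dnajc3 (adjusted p = 0.0214), Syvn1 (0.0259), Dnajb9 (0.0327), Herpud1 (0.0478) and the disulfide isomerase Pdia6 (0.0486) rose as well. Syvn1 is the ubiquitin ligase of ER-associated degradation and Herpud1 a member of its complex. Sdf2l1 fell, at -1.06 ± 0.21 (adjusted p = 0.0165). With the 6 Nmnat1 knockdown and scramble libraries alone, Canx, Xbp1 and Eif2ak3 rose and Sdf2l1 fell, where 2.73% of all genes rose and 2.18% fell. Members that passed in these fits are named because they passed there, after their values were seen.

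**Figure D2:**
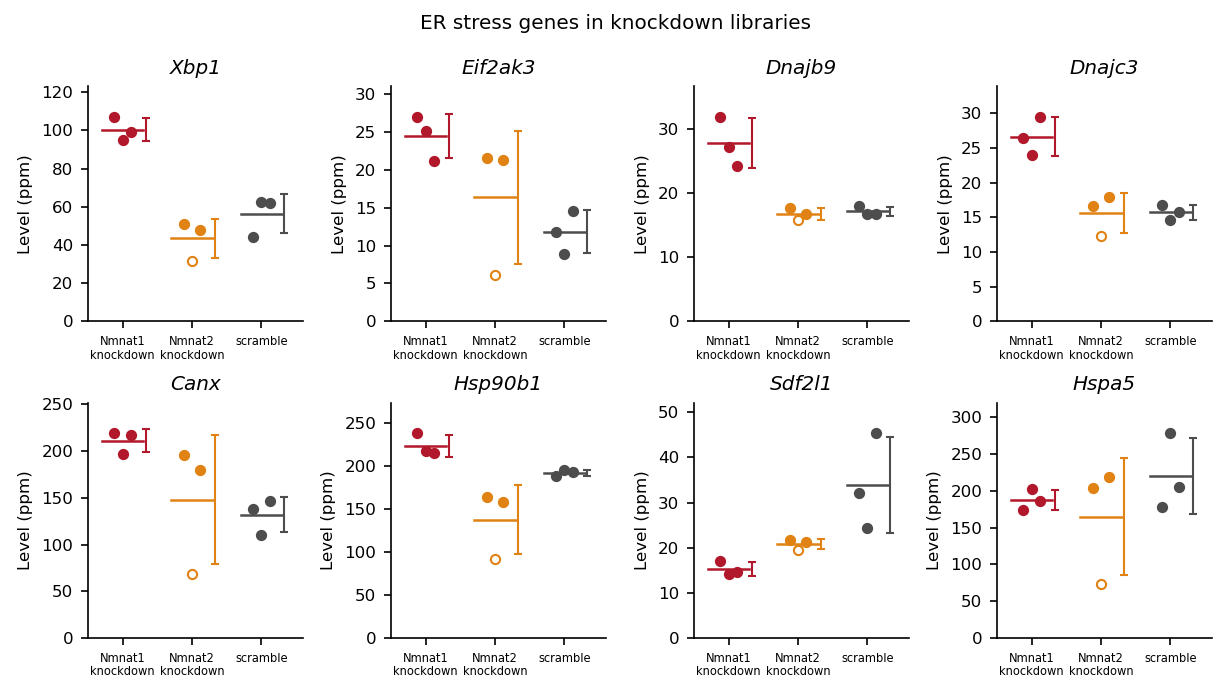
Levels of 8 ER stress genes in ppm (vertical axes from 0) in each knockdown table library, with a line at the group mean and a bar of ± SD (n = 3); the open point is library 2 of the Nmnat2 knockdown. Xbp1, Eif2ak3, Dnajb9, Dnajc3, Canx and Hsp90b1 separate Nmnat1 knockdown from scramble upwards and Sdf2l1 downwards, while Hspa5 overlaps.

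Marker levels of several cell types differed between the same libraries. The summed level of 8 Müller glia markers was 2528 to 2648 ppm in Nmnat1 knockdown and 4797 to 5481 ppm in scramble libraries, and that of 8 progenitor markers was 179 to 186 against 412 to 429 ppm. The 8 microglia and macrophage markers, all found in the table, summed to 24.3 to 30.5 against 9.71 to 17.5 ppm, with none at 0 in Nmnat1 knockdown libraries. The 7 pigment epithelium markers summed to 71.6 to 82.6 against 47.3 to 57.9 ppm, with Ttr at 0 in 2 of the Nmnat1 knockdown libraries. The 8 rod markers summed to 5261 to 5372 ppm in Nmnat1 knockdown and 4642 to 5012 ppm in scramble libraries. The part of these shifts in the stress gene levels was not tested. In such bulk samples fewer cells of a type and less RNA per cell cannot be told apart.

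The Atf4 and amino acid list did not lie to one side in Nmnat1 knockdown cells: its median fold change was -0.02, with 10 members above 0 and 10 below. Without overlap, 2 of 20 members were higher (Atf4 and the alanyl-tRNA synthetase gene Aars), beside the 12.8% of all genes given above. The 4 that were lower were Psat1, Shmt2, Slc3a2 and Slc7a11, beside 12% of all genes. Atf4, the factor translated when eIF2 is phosphorylated, stood at 312, 309 and 308 ppm in Nmnat1 knockdown libraries and at 272, 262 and 225 ppm in scramble libraries. The 3 Nmnat1 knockdown libraries were nearly equal and all above scramble, at 0.30 ± 0.14 (adjusted p = 0.513), and Atf4 rose in the fit without library 2 of the Nmnat2 knockdown (adjusted p = 0.0496). Psat1, an enzyme of serine synthesis, stood at 37.9, 32.2 and 34.4 ppm in Nmnat1 knockdown libraries, against 47.9, 68.7 and 48.5 ppm in scramble libraries (-0.63 ± 0.36, adjusted p = 0.583). It fell in the fit without that library (adjusted p = 0.0343).

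Several well-known Atf4 targets did not separate the groups. Asns, the asparagine synthetase gene whose CARE is shown above, stood at 6.75, 6.69 and 14.3 ppm in Nmnat1 knockdown libraries and at 12.2, 16.6 and 17.5 ppm in scramble libraries (-0.74 ± 0.34, adjusted p = 0.482). Ddit3, which encodes Chop, stood at 72.2, 95.9 and 105 ppm, against 97.7, 69.7 and 88.4 ppm in scramble libraries (0.09 ± 0.24, adjusted p = 0.921). Both genes overlapped between the groups. Trib3, a pseudokinase that feeds back on Atf4, ranged from 0.545 to 4.67 ppm in Nmnat1 knockdown and from 1.43 to 5.85 ppm in scramble libraries. Chac1, which degrades glutathione, ranged from 1.05 to 5.14 ppm in Nmnat1 knockdown libraries and was listed at 6.90, 0 and 6.78 ppm in scramble libraries. Both genes overlapped between the groups at these low levels. Mthfd2, a mitochondrial folate enzyme, had 14.8 to 22.2 ppm against 13 to 16.5 ppm (0.32 ± 0.24, adjusted p = 0.676).

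In Nmnat2 knockdown cells both lists had a median below 0, at -0.18 for the ER stress list and -0.19 for the Atf4 and amino acid list, but so had all genes tested, at -0.23. With median-of-ratios scaling the medians were 0.02, 0.03 and -0.04, so no direction is given to either list. Library 2 carried much of the spread: its ER stress list summed to 1900 ppm, against 3026 and 3005 ppm in libraries 1 and 3. Without library 2 the medians were 0.13 and -0.01, beside -0.15 over all genes. Without overlap, 1 and 2 members of the lists were higher than scramble (4.73% of all genes) and 3 and 4 were lower (17.2% of all genes).

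Dnajb11, a BiP cochaperone, stood at 45.9, 35.7 and 46.6 ppm in Nmnat2 knockdown libraries and at 75.5, 77.0 and 58.0 ppm in scramble libraries. The groups did not overlap, and the fold change was -0.70 ± 0.20 (adjusted p = 0.135). Sec61b, a subunit of the channel through which proteins enter the ER, stood at 305, 614 and 316 ppm, against 254, 213 and 236 ppm in scramble libraries. It was highest in library 2 and above scramble in all 3 (0.74 ± 0.25, adjusted p = 0.178). Hsp90b1, the ER chaperone Grp94, had 163, 91.3 and 158 ppm in Nmnat2 knockdown libraries and 188, 195 and 193 ppm in scramble libraries (-0.52 ± 0.22, adjusted p = 0.258). Sdf2l1 had 21.7, 19.4 and 21.3 ppm, against 32.2, 24.3 and 45.4 ppm in scramble libraries (-0.64 ± 0.26, adjusted p = 0.246). Hsp90b1 and Sdf2l1 were below scramble in all 3 libraries. Hspa5 had 203, 73.4 and 218 ppm in Nmnat2 knockdown libraries, with libraries 1 and 3 inside the scramble range of 178 to 278 ppm.

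The transporter genes Slc3a2 and Slc7a11 gave the smallest p-values of the second list. Slc3a2, the heavy chain shared by several amino acid exchangers, stood at 96.8, 57.6 and 100.1 ppm in Nmnat2 knockdown libraries and at 129, 131 and 146 ppm in scramble libraries (-0.71 ± 0.22, adjusted p = 0.154). Slc7a11, the cystine transporter that pairs with it, stood at 7.57, 12.4 and 6.08 ppm, against 19.0, 14.8 and 17.0 ppm in scramble libraries (-0.94 ± 0.29, adjusted p = 0.156). Neither gene overlapped between the groups, and for Slc7a11 library 2 was the highest and not the lowest of its group. Both genes were also below every scramble library in Nmnat1 knockdown. There Slc7a11 stood at 11.6 to 13.1 ppm and Slc3a2 at 113.5 to 128.5 ppm, the latter close to the lowest scramble library at 128.8 ppm. A further transporter gene, Slc7a5, overlapped, at 27.0, 7.05 and 34.7 ppm in Nmnat2 knockdown and 32.2 to 37.2 ppm in scramble libraries. Psph, the last enzyme of serine synthesis, had 28.7 to 43.1 ppm in Nmnat2 knockdown and 51.0 to 61.5 ppm in scramble libraries (-0.61 ± 0.21, adjusted p = 0.182). Vldlr, a lipoprotein receptor known as an Atf4 target, had 14 to 21.7 ppm against 24.4 to 33.6 ppm (-0.63 ± 0.23, adjusted p = 0.216). The members of this list that were higher than scramble without overlap were Ddit3 and Mthfd2. Ddit3 stood at 100.1, 159 and 101.0 ppm in Nmnat2 knockdown libraries, against 97.7, 69.7 and 88.4 ppm in scramble libraries. Mthfd2 had 18.9 to 21.2 ppm against 13.0 to 16.5 ppm. Atf4 overlapped, at 271 to 309 ppm in Nmnat2 knockdown and 225 to 272 ppm in scramble libraries. Trib3, Chac1 and Asns overlapped too, and so did Xbp1 and Eif2ak3 of the ER stress list.

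Without library 2, Nmnat2 knockdown is represented by libraries 1 and 3, which were closer to each other than any other pair of one group (variance 3.84 times that of counting, against 5.01 to 36.1 for the other pairs). In that fit 6 ER stress genes rose and 1 fell, where 7.99% of all genes rose and 7.51% fell. Those that rose were Eif2ak3 (0.83 ± 0.22, adjusted p = 0.0328), Sel1l, a partner of Syvn1 (0.56 ± 0.15, adjusted p = 0.0354), Syvn1, Canx, Pdia3 and Sec61b. Pdia3, a disulfide isomerase of glycoprotein folding, stood at 251, 72.8 and 249.8 ppm in Nmnat2 knockdown libraries and at 194, 170.0 and 177 ppm in scramble libraries. Its direction turned with library 2: it was at -0.12 ± 0.39 with all libraries and at 0.47 ± 0.08 without that one (adjusted p = 0.00507). Dnajb11 fell (-0.58 ± 0.15, adjusted p = 0.0304). Of the second list Slc3a2 (-0.45 ± 0.10, adjusted p = 0.0137), Slc7a11 (-1.20 ± 0.22, adjusted p = 0.00609) and Psph (-0.43 ± 0.12, adjusted p = 0.0422) fell and none rose. The 8 rod markers summed to 1614 to 3047 ppm in Nmnat2 knockdown and 4642 to 5012 ppm in scramble libraries. The Müller glia markers summed to 2056 to 3368 against 4797 to 5481 ppm and the cone markers to 62.3 to 105 against 208 to 234 ppm. The 7 amacrine markers summed to 786, 315 and 795 ppm in Nmnat2 knockdown libraries 1, 2 and 3 and to 339 to 351 ppm in scramble libraries, so that libraries 1 and 3 were above scramble. The part of these shifts in the values was not tested.

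Between the knockdowns, Xbp1 was the member that passed the test. It stood at 107, 95 and 99.3 ppm in Nmnat1 knockdown libraries, against 51.0, 31.7 and 47.7 ppm in Nmnat2 knockdown libraries. All 3 Nmnat1 knockdown libraries were above all 3 of the Nmnat2 knockdown, and the fold change was 1.22 ± 0.23 (adjusted p = 0.0254). It passed in 8 of 15 alternatives, at fold changes of 0.98 to 1.34 and adjusted p from 8.05e-05 to 0.125. Leaving out any 1 Nmnat1 knockdown library, library 3 of the Nmnat2 knockdown or library 3 of scramble ended the call, and so did a fit of the 2 groups alone and one with libraries 1 and 3 of the Nmnat2 knockdown averaged. Without library 2 of the Nmnat2 knockdown it was 1.01 ± 0.15 (adjusted p = 0.00199).

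The ER stress list as a whole had a median of 0.65 between the knockdowns, beside 0.25 over all genes, and 0.40 beside 0.06 with median-of-ratios scaling. For the second list the median was 0.21, and -0.03 with that scaling. Without library 2 of the Nmnat2 knockdown the medians were 0.17 and 0.03, beside 0.18 over all genes, so the ER stress list no longer lay above all genes. Without overlap 8 ER stress genes were higher and 3 lower in Nmnat1 knockdown, and 4 and 0 of the second list, where 19% of all genes were higher and 6.37% lower. Dnajb11 had 67.2 to 83.2 ppm in Nmnat1 knockdown and 35.7 to 46.6 ppm in Nmnat2 knockdown libraries (0.85 ± 0.20, adjusted p = 0.0662). Hsp90b1 had 215 to 238 against 91.3 to 163 ppm (0.74 ± 0.22, adjusted p = 0.124), and Dnajb9 had 24.2 to 31.9 against 15.8 to 17.6 ppm (0.69 ± 0.21, adjusted p = 0.144). These 3 chaperone genes separated the knockdowns without overlap. Sesn2, a stress-induced inhibitor of mTORC1 signalling, had 19.8 to 25.2 ppm in Nmnat1 knockdown and 4.50 to 16.1 ppm in Nmnat2 knockdown libraries (1.04 ± 0.42, adjusted p = 0.259). Vldlr had 31.0 to 33.3 against 14 to 21.7 ppm (0.79 ± 0.23, adjusted p = 0.129), Psph 59.0 to 62.0 against 28.7 to 43.1 ppm (0.67 ± 0.21, adjusted p = 0.142) and Slc3a2 114 to 129 against 57.6 to 100.1 ppm (0.55 ± 0.22, adjusted p = 0.243). Without library 2 of the Nmnat2 knockdown, Dnajb11, Dnajb9, Hsp90b1, Xbp1, Herpud1, Vldlr, Slc7a11 and Psph were higher and Pdia3, Psat1 and Shmt2 lower in Nmnat1 knockdown. In that fit 6.52% of all genes were higher and 7.02% lower. Pdia3 had 194 to 206 ppm in Nmnat1 knockdown libraries, between the low library 2 of the Nmnat2 knockdown and the other 2. Its direction turned here too, at 0.26 ± 0.39 with all libraries and -0.33 ± 0.08 without library 2 (adjusted p = 0.0292).

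**Figure D3:**
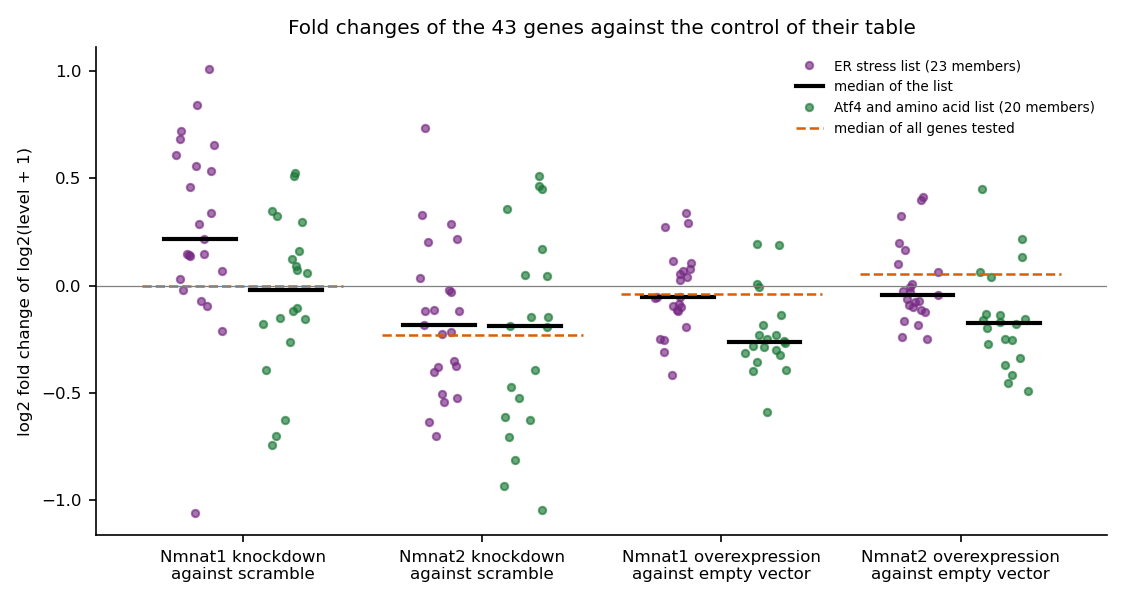
Fold change of each gene, as the difference in log2(ppm + 1), in the 4 comparisons with a control (columns); purple points are the 23 ER stress genes and green points the 20 Atf4 and amino acid genes, black bars the list medians and dashed lines the median of all genes tested. The ER stress median lies above the dashed line for Nmnat1 knockdown (0.22 against -0.00). The Atf4 and amino acid median lies below the dashed line for Nmnat1 overexpression (-0.26 against -0.04) and for Nmnat2 overexpression (-0.18 against 0.06).

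Nmnat1 overexpression left the ER stress list near the centre of all genes, while 17 of 20 members of the Atf4 and amino acid list had a fold change below 0. The medians were -0.05 and -0.26, beside -0.04 over all genes. Without overlap 4 ER stress genes were higher and 3 lower, and 0 and 5 of the second list, where 7.74% of all genes were higher and 10.1% lower. The summed level of the second list was 959 to 1017 ppm in Nmnat1 overexpression and 1116 to 1168 ppm in empty vector libraries.

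Sesn2 stood at 17.0, 12.4 and 13.7 ppm in Nmnat1 overexpression libraries and at 21.1, 22.5 and 22.2 ppm in empty vector libraries, with no overlap (-0.59 ± 0.16, adjusted p = 0.226). Atf4 stood at 247, 228 and 232 ppm, against 305, 282 and 277 ppm in empty vector libraries, again with no overlap (-0.29 ± 0.09, adjusted p = 0.269). Slc7a5, the light chain of the large neutral amino acid exchanger, overlapped at 34.4, 27.0 and 32.7 ppm against 33.3, 44.6 and 40.9 ppm (-0.32 ± 0.15, adjusted p = 0.518). So did Ddit3, at 63.5 to 83.6 ppm in Nmnat1 overexpression and 78.4 to 111 ppm in empty vector libraries (-0.31 ± 0.16, adjusted p = 0.610), and Asns, at 10.5 to 12.7 against 12.4 to 18.3 ppm (-0.39 ± 0.23, adjusted p = 0.671). Trib3 had 1.34 to 1.98 against 1.67 to 3.10 ppm and Chac1 1.89 to 3.74 against 2.02 to 4.89 ppm.

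On the ER side Xbp1 stood at 62.2, 46.8 and 54.6 ppm in Nmnat1 overexpression libraries and at 79.3, 72.7 and 66.3 ppm in empty vector libraries (-0.42 ± 0.14, adjusted p = 0.329). Calr, the lectin chaperone calreticulin, stood at 1101, 930.4 and 919 ppm, against 831, 803 and 799.8 ppm in empty vector libraries (0.27 ± 0.10, adjusted p = 0.356). Xbp1 was lower and Calr higher in all 3 Nmnat1 overexpression libraries. Sel1l had 102 to 137 ppm in Nmnat1 overexpression and 89.0 to 95.9 ppm in empty vector libraries (0.34 ± 0.15, adjusted p = 0.490), and the disulfide isomerase Pdia4 had 143 to 161 against 169 to 185 ppm (-0.25 ± 0.12, adjusted p = 0.581). Hspa5 overlapped (219 to 258 against 217 to 253 ppm), as did Eif2ak3 (18.9 to 25.1 against 17.9 to 30.01 ppm) and Sdf2l1 (15.8 to 23.1 against 19.9 to 22.6 ppm).

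Without the 3 libraries numbered 1, which leaves 2 per group, Calr, Sel1l and Sec61b rose with Nmnat1 overexpression, and Xbp1, Pdia4, Slc3a2, Sesn2, Slc7a5 and Atf4 fell. In that fit 6.21% of all genes rose and 4.94% fell. Atf4 was at -0.28 ± 0.05 (adjusted p = 0.0149), Sesn2 at -0.73 ± 0.14 (adjusted p = 0.0164) and Xbp1 at -0.45 ± 0.10 (adjusted p = 0.0314). The list medians there were -0.00 and -0.27, beside -0.03 over all genes.

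Nmnat2 overexpression was compared with the same empty vector libraries, so that both overexpressions share their control. The medians were -0.05 for the ER stress list and -0.18 for the Atf4 and amino acid list, beside 0.06 over all genes, and 15 of 20 members of the second list were below 0. Without overlap 4 ER stress genes were higher and 1 lower, and 0 and 3 of the second list, where 8.6% of all genes were higher and 7.73% lower. Calr stood at 1066, 1078 and 1070.0 ppm in Nmnat2 overexpression libraries and at 831, 803 and 799.8 ppm in empty vector libraries (0.40 ± 0.10, adjusted p = 0.117). Atf4 stood at 215, 230.3 and 238 ppm, against 305, 282 and 277 ppm in empty vector libraries (-0.34 ± 0.09, adjusted p = 0.151). Sesn2 stood at 14.4, 17.6 and 15.3 ppm, against 21.1, 22.5 and 22.2 ppm (-0.45 ± 0.16, adjusted p = 0.344). All 3 genes separated the groups without overlap.

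The other members with the smallest p-values of their list had larger p-values than these. Ddit4, another inhibitor of mTORC1 signalling, had 41.8 to 52.4 ppm in Nmnat2 overexpression and 54.4 to 57.0 ppm in empty vector libraries (-0.25 ± 0.12, adjusted p = 0.507). Psph had 46.4 to 60.4 against 59.2 to 64.4 ppm (-0.27 ± 0.12, adjusted p = 0.489). Canx had 211 to 237 against 181 to 209 ppm (0.20 ± 0.10, adjusted p = 0.535), Pdia3 234 to 245 against 203 to 221 ppm (0.17 ± 0.09, adjusted p = 0.594) and Dnajb9 19.5 to 32.9 against 15.7 to 18.3 ppm (0.41 ± 0.21, adjusted p = 0.550). Library 1 was the highest of the Dnajb9 values. Xbp1 overlapped, at 59.4 to 76.8 ppm in Nmnat2 overexpression and 66.3 to 79.3 ppm in empty vector libraries (-0.08 ± 0.14, adjusted p = 0.913), and so did Hspa5, Eif2ak3, Sdf2l1, Ddit3, Trib3, Chac1 and Asns. Without the libraries numbered 1, Calr rose (0.42 ± 0.04, adjusted p = 0.000811) and Atf4 fell (-0.26 ± 0.05, adjusted p = 0.0254), where 4.65% of all genes rose and 3.53% fell. The list medians there were 0.08 and -0.12, beside 0.03 over all genes. Xbp1 was then at 0.09 and so on the other side of 0.

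**Figure D4:**
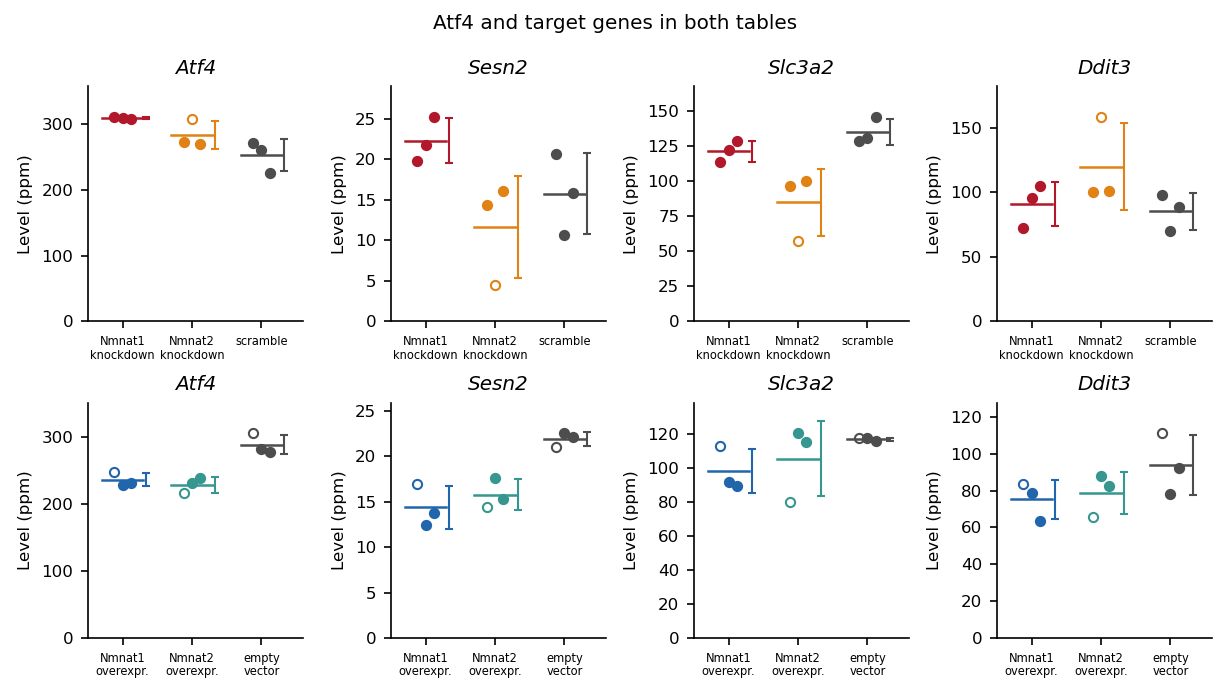
Levels of Atf4, Sesn2, Slc3a2 and Ddit3 in ppm (vertical axes from 0) in each library of the knockdown table (upper row) and the overexpression table (lower row), with group means and ± SD (n = 3); open points are library 2 of the Nmnat2 knockdown and the libraries numbered 1 of the overexpression table. Atf4 lies at 308 to 312 ppm in Nmnat1 knockdown, above its scramble libraries. It lies below the empty vector libraries in both overexpressions, at 228 to 247 ppm for Nmnat1 and 215 to 238 ppm for Nmnat2.

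Marker levels differed with the overexpressions as well. The 8 rod markers summed to 2336 to 4162 ppm in Nmnat1 overexpression, 2280 to 3149 ppm in Nmnat2 overexpression and 4690 to 5129 ppm in empty vector libraries. The 7 amacrine markers summed to 354 to 475, 302 to 458 and 239 to 267 ppm in the same groups. No rod marker was at 0 in any library, and the part of these shifts in the Atf4 and Calr levels was not tested. Set against each other, the 2 overexpressions gave list medians of -0.04 and -0.03, beside -0.05 over all genes, and of 0.05 and 0.05 with median-of-ratios scaling. Without the libraries numbered 1 they were -0.09 and -0.13, beside -0.04 over all genes. Xbp1 had the smallest p among the members, at 46.8 to 62.2 ppm in Nmnat1 overexpression and 59.4 to 76.8 ppm in Nmnat2 overexpression libraries (-0.34, adjusted p = 0.953). Edem1, which takes misfolded glycoproteins to degradation, had 7.90 to 12.1 against 13.2 to 13.5 ppm, and Slc7a11 had 5.73 to 13.7 against 9.15 to 26.0 ppm.

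Other genes of both pathways were drawn from longer lists, of which 35 ER genes and 40 genes of the eIF2 arm were tested. None passed in any comparison with a control. Between the knockdowns 3 passed, all higher in Nmnat1 knockdown, where 2.06% of all genes passed in either direction. Creb3, an ER-bound transcription factor, had 170.1 to 186 ppm in Nmnat1 knockdown and 83.7 to 99.4 ppm in Nmnat2 knockdown libraries (0.96 ± 0.15, adjusted p = 0.0119). Slc1a5, a glutamine transporter, had 16.0 to 17.3 against 3.29 to 4.84 ppm (1.86 ± 0.33, adjusted p = 0.0211). Pck2, the mitochondrial phosphoenolpyruvate carboxykinase gene and a known Atf4 target, had 35 to 44.3 against 11.0 to 19.1 ppm (1.37 ± 0.27, adjusted p = 0.0297). Without library 2 of the Nmnat2 knockdown, 6 ER genes were higher and 3 lower in Nmnat1 knockdown. Of the eIF2 arm 3 were higher and 7 lower. Creb3, Slc1a5 and Pck2 were among those higher. In that fit 6.52% of all genes were higher and 7.02% lower.

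Without library 2 of the Nmnat2 knockdown, 6 of the 35 ER genes rose and none fell in Nmnat1 knockdown against scramble, and 2 of the 40 eIF2 arm genes rose and 6 fell, beside the 4.82% and 3.6% of all genes given above. Sec61a1, the channel-forming subunit of the Sec61 complex, had 228 to 261 ppm in Nmnat1 knockdown and 129 to 149 ppm in scramble libraries (0.84 ± 0.08, adjusted p = 0.000497). Ppp1r15b, a subunit of the phosphatase that removes phosphate from eIF2, had 37.7 to 51.2 against 19.0 to 25.5 ppm (0.92 ± 0.16, adjusted p = 0.0079). Pck2, the Atf4 target named above, had 35 to 44.3 ppm in Nmnat1 knockdown and 14.5 to 21.2 ppm in scramble libraries (1.09 ± 0.18, adjusted p = 0.00718). Eif4ebp1, a translation inhibitor and known Atf4 target, fell to 5.74 to 12.4 ppm in Nmnat1 knockdown, against 20.2 to 28 ppm in scramble libraries (-1.22 ± 0.27, adjusted p = 0.0246). Eif2b2, Sars, Nupr1, Slc38a2 and Cth fell as well. In Nmnat2 knockdown against scramble 5 and 8 genes of these lists rose and 6 and 1 fell in that fit. Of all genes 7.99% rose and 7.51% fell there. Those that rose included 4 tRNA synthetase genes, Gars, Nars, Eprs and Yars, by 0.45 to 0.56. Their rise rests on libraries 1 and 3, as all 4 were below every scramble library in the left-out library 2. Gars, for example, had 186, 43.7 and 189 ppm in Nmnat2 knockdown and 125 to 136 ppm in scramble libraries. Without the libraries numbered 1, Nupr1, a stress-induced chromatin factor, rose with Nmnat1 overexpression (1.70 ± 0.27, adjusted p = 0.0076) and with Nmnat2 overexpression (2.16 ± 0.27, adjusted p = 0.00305). Its levels were low, at 6.81, 11.4 and 13.8 ppm in Nmnat1 and 4.84, 16.5 and 18.9 ppm in Nmnat2 overexpression libraries. Empty vector libraries had 4.22, 4.44 and 2.21 ppm, close to the left-out library 1 of the Nmnat2 overexpression. With Nmnat1 overexpression Ssr3 and Slc38a2 also rose in that fit and Creb3, Ssr2 and Mars fell, out of 34 ER genes and 40 eIF2 arm genes tested, beside 6.21% of all genes that rose and 4.94% that fell.

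The fold changes were also set beside the promoter elements. The 8 ER stress genes with the ER stress element had a median fold change of 0.25 in Nmnat1 knockdown against scramble, ranging from -0.21 (Hspa5) to 0.72 (Dnajc3), and the other 15 had a median of 0.15. In Nmnat2 knockdown the medians were -0.19 and -0.18, and 0.10 and 0.30 without library 2. The 6 Atf4 and amino acid genes with a CARE had a median of -0.27 in Nmnat1 knockdown and -0.55 in Nmnat2 knockdown against scramble, and the other 14 had 0.07 and -0.15. Without library 2 the Nmnat2 knockdown medians were -0.29 with a CARE and 0.05 without. In Nmnat1 overexpression the medians were -0.29 with a CARE and -0.25 without, and in Nmnat2 overexpression -0.17 and -0.18. Without the libraries numbered 1 they were -0.33 and -0.26 for Nmnat1 overexpression and -0.23 and -0.09 for Nmnat2 overexpression. The genes set against those with an element include Atf6, Hyou1 and Manf in the ER stress list and Slc7a5 in the second list. The promoters of these genes were not searched, so they are not known to lack the element. Dnajb11 and Herpud1, which hold the second ER element, were also counted among the genes without the ER stress element. These medians are descriptions without a test.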

How the data were processed

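Expression was measured in 18 libraries made from sorted cells with SMART-Seq v4 and Nextera kits, per the labels' protocols. Such libraries carry no strand information. Per the submitters' processing notes, the tools were Salmon 0.11.3 and sleuth 0.30.0 and the build GRCm38.p6. The values the authors deposited are a length-scaled signal named TPM whose columns do not sum to 1000000. Each was divided by its column sum (ppm). Steps of single reads were seen in 67.1% to 81.6% of low values per library, too few to recover counts, so no count test was run. The incomplete last line of each table was left out.

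A gene was kept if 3 or more libraries of its table reached 1 ppm (22233 and 20725 genes). The fit was made in R 4.3.3 with limma 3.58.1 to log2(ppm + 1), with 3 groups per fit, a mean-variance trend, two-sided tests and Benjamini-Hochberg adjustment over all genes kept. The script was tested on simulated data. No test crosses the tables. Knockdown columns were matched to groups by name. The titles of 1 Nmnat2 knockdown and 1 Nmnat2 overexpression sample name Nmnat3; their descriptions and characteristics, which name Nmnat2, were followed. The members and lists were chosen with earlier results of these data known. Named are members past the threshold, the 4 with the smallest p per list and comparison, and 9 others chosen for their role (Hspa5, Xbp1, Eif2ak3, Sdf2l1, Atf4, Ddit3, Trib3, Chac1 and Asns). Cell type markers without a value in the text were examined but not described. Alternatives covered the pseudocount, filter, scaling, array weights, 2-group fits, left-out libraries and, for the overexpression table, a replicate term. Averaging libraries 1 and 3 of the Nmnat2 knockdown was added after seeing the data. Promoter stretches are from RefSeq.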

Additional observations from a re-analysis of the deposited data

Results flagged for a closer look

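The Xbp1 difference between the 2 knockdowns is the flagged result, because the test of the difference itself passed. Xbp1 was 1.22 higher on the log2(ppm + 1) scale in Nmnat1 knockdown (95 to 107 ppm) than in Nmnat2 knockdown (31.7 to 51.0 ppm). The adjusted p was 0.0254 by limma. Of all genes tested, 2.06% passed in the same comparison. The 1 call among the members therefore does not set the lists apart from other genes. The Xbp1 call held in 8 of 15 alternatives, as given above. For this flag, single genes were not searched for 1 outlying library in a group of 3. Library 2 of the Nmnat2 knockdown was set apart over all genes, as given above.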

How the results depend on the processing

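Counts of called members depended on library 2 of the Nmnat2 knockdown and on the libraries numbered 1 of the overexpression table. Calls over all genes did so too. Without library 2 they went from 32 to 1826 for Nmnat1 knockdown and from 97 to 3359 for Nmnat2 knockdown. Between the knockdowns they went from 458 to 2933. Without the libraries numbered 1 they went from 25 to 1951 for Nmnat1 and from 114 to 1431 for Nmnat2 overexpression. For array weights no share over all genes is given, so those counts are not read as a response of the members. For Nmnat1 knockdown 0 ER stress genes passed, against 4 with the 2 groups alone and 2 with array weights; leaving out 1 library at a time gave 0 to 9, and 0 to 2 for the Atf4 and amino acid list. For Nmnat2 knockdown array weights gave 8 and 5 members of the lists, and leaving out 1 library 0 to 7 and 0 to 3. Between the knockdowns 1 ER stress gene passed, against 0 with the 2 groups alone, 9 with array weights and 0 with libraries 1 and 3 of the Nmnat2 knockdown averaged, and 0 to 6 with 1 library left out; for the second list these were 8 with array weights and 0 to 5. Nmnat1 overexpression gave 3 and 4 members with array weights and 5 and 4 without the libraries numbered 1, and Nmnat2 overexpression 1 and 1 with either, and 0 to 1 for the ER stress list with 1 library left out. The cause was not tested. Of 1063 single-member values 961 kept their direction and their side of the threshold, 78 passed it only in the alternative, 7 lost it and 17 changed direction, 3 of them with a call, all of Pdia3. For Pdia3 in Nmnat2 knockdown these were 0.12 with median-of-ratios scaling, 0.46 with array weights (adjusted p = 0.0364) and -0.41 to 0.47 with 1 library left out. For Pdia3 between the knockdowns they were -0.30 with array weights (adjusted p = 0.0864) and -0.33 to 0.56 with 1 library left out. With libraries 1 and 3 of the Nmnat2 knockdown averaged, Canx was at -0.20 in Nmnat2 knockdown and Shmt2 at 0.10 between the knockdowns; with 1 library left out they ranged from -0.23 to 0.52 and from -0.29 to 0.12. Ddit3 in Nmnat1 knockdown ranged from -0.047 to 0.247 with 1 library left out. Xbp1 in Nmnat2 overexpression was at 0.056 with array weights, 0.093 without the libraries numbered 1 and -0.153 to 0.0297 with 1 library left out.

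With the replicate number as a block, 0 members passed in the overexpression comparisons, and 187, 269 and 4 of all genes. Same-numbered libraries of different groups deviated together at correlations of 0.027 to 0.461, under 0.1 for 2 pairs. Differently numbered libraries ran from -0.378 to 0.242. The main fit held the group only and no term for the number. Whether the numbers pair the samples was not tested. No paired analysis was possible in the knockdown table because its columns were matched to groups by their prefix and not to single numbered samples. Members near 1 ppm rest on few reads.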
